A study of Mus musculus with 14 samples.

Results

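The NMDA receptor subunit genes Grin1, Grin2a, Grin2b, Grin2c, Grin2d and Grin3a were described in mRNA bound to ribosomes of hippocampal parvalbumin (PV) neurons and in whole hippocampus, in mice that had or had not been exposed to chronic social defeat stress (CSDS). The 6 genes were chosen by name as subunits of the receptor and not by a cut on their measured values, although earlier results of these data were known. They are 6 of the 39017 gene rows for which read counts were given. All 6 passed the filter on low counts, which kept 21298 genes. A further subunit gene, Grin3b, is described with the partner genes, and counts of members leave it out.

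The question of the study was whether PV neurons of the hippocampus differ in their translated mRNA between mice that do and do not withstand social stress. All animals were adult males of a C57BL/6 background that carried the PV-Cre driver and a Cre-dependent EGFP-L10a allele. In these mice the ribosomal protein L10a carries a green fluorescent tag in every cell in which the PV promoter has driven Cre, so the tagged cells are defined by past or present PV-Cre activity and not by region or layer. Translating ribosome affinity purification (TRAP) pulls down the tagged ribosomes and the mRNA bound to them from a homogenate.

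CSDS consists of daily attack by a CD-1 aggressor mouse followed by housing beside it. Defeated mice were sorted afterwards by a social interaction test, in which a ratio above 1 marked a resilient mouse and a ratio below 1 a susceptible mouse. Sequenced libraries came from 4 non-defeated, 4 resilient and 3 susceptible mice by TRAP, each from the pooled hippocampi of 1 mouse, and from 3 input samples. Input is RNA of the hippocampal homogenate of non-defeated mice, labelled CTRL Input, with no purification of tagged ribosomes. The design text of the series gives it so, although the molecule label of these samples also names translating RNA. Non-defeated mice were housed in pairs without attack. All 4 groups thus carry the same alleles, and resilient and susceptible mice had the same treatment and differ by the outcome of the test. The labels do not say whether the input samples came from the same mice as the TRAP libraries, and p-values below measure the spread between these libraries.

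NMDA receptors of GluN1 and GluN2 subunits are glutamate-gated cation channels. They open only when glutamate and a co-agonist, glycine or D-serine, are bound and depolarization has relieved a block by magnesium. Each NMDA receptor contains the obligatory GluN1 subunit, encoded by Grin1. It is joined by GluN2 subunits (Grin2a to Grin2d), which bind glutamate and set the kinetics of the channel, or by GluN3 subunits. GluN3 subunits (Grin3a and Grin3b) bind glycine. GluN2A and GluN2B are the main GluN2 subunits of forebrain principal cells, GluN2D is known from interneurons, GluN2C is known from cerebellum, thalamus and glia, and open NMDA channels are the site at which ketamine binds.

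Library totals ranged from 64110214 to 94726962 counts. Values are given as CPM, counts scaled to a common library size by TMM normalization, which assumes that most genes do not differ, and levels are compared between genes only as CPM per kilobase of merged exons (RPKM). The label of the purified cells was checked with marker genes. All 10 PV interneuron markers were higher in the non-defeated TRAP libraries than in input, with a summed level of 4258 to 4559 CPM against 581 to 682, and Pvalb itself differed by 5.85 on the log2 scale (SE 0.17, adjusted p = 7.89e-11). Of 6 markers of other interneurons, 2 were higher at an adjusted p under 0.05 (Npy by 2.79 and Sst by 1.61) and 3 lower. Their sum was 342 to 535 CPM against 191 to 205 in input, 343 to 695 in resilient and 405 to 774 in susceptible libraries. Of 5 endothelial markers, 1 was higher (Cldn5 by 1.22). All 8 markers of hippocampal excitatory neurons were lower (288 to 392 CPM in sum against 1172 to 1397) but none was at 0. Summed thalamic markers exceeded 300 CPM in 4 of the 14 libraries (non-defeated 9 and 11, resilient 7 and input 14, at 302 to 720). They lay between 50.01 and 159 in the others. Calls of the members are also given without those 4 libraries. For TRAP against input this leaves only non-defeated 1 and 6 and input 12 and 13.

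All 6 genes lie on the minus strand. Grin1 (ENSMUSG00000026959) lies at chr2:25291181-25319187 of mm10, Grin2a (ENSMUSG00000059003) at chr16:9567898-9995560, Grin2b (ENSMUSG00000030209) at chr6:135713233-136173511, Grin2c (ENSMUSG00000020734) at chr11:115249169-115267243, Grin2d (ENSMUSG00000002771) at chr7:45831883-45878378 and Grin3a (ENSMUSG00000039579) at chr4:49661611-49845744, each as annotated in GENCODE M21. Merged exons spanned from 5037 bases in Grin2c to 24842 bases in Grin2b, of which the longest coding sequence of Grin2b took 4446. The first exons of the most abundant subunit gene and of the one that varied most between libraries begin just after the sequences below, which are the 250 bases before the annotated starts in RefSeq (GRCm38.p6, minus strand, chr2:25319188-25319437 and chr11:115267244-115267493). Capitals mark GC boxes, here the letters GGGCGG or their complement CCGCCC on either strand, and matches may overlap.

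Grin1 promoter: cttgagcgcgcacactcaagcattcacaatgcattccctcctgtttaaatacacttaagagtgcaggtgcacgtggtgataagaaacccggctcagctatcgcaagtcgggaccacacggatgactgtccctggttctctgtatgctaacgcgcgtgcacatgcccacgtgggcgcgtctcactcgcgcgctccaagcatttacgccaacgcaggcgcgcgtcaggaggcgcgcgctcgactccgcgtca
Grin2c promoter: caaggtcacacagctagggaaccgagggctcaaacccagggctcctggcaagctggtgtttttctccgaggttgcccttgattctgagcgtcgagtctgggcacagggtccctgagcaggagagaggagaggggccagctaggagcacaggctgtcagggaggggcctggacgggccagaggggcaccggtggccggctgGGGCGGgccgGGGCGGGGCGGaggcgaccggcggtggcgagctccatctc

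The Grin1 window held 0 GC boxes and 58.8% G or C, and the Grin2c window held 3 GC boxes and 68.8% G or C. Of 32851 promoter windows of that length, 32.7% held a GC box, and the median content of G or C was 52.4%. The window of Grin2d, not printed here, held 0 GC boxes and 54.4% G or C. The RefSeq table has no entry for Grin2a, Grin2b and Grin3a.

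The obligatory subunit gene was the most abundant in every group. Per kilobase of merged exons, the order of the mean levels below it was shared by input, non-defeated and resilient libraries but not by susceptible ones. In TRAP of non-defeated mice, Grin1 stood at 9.14 ± 1.49 RPKM (SD, n = 4), above every other member in 4 of 4 libraries. Grin2d (3.12 ± 0.133) and Grin2b (2.90 ± 0.217) came next, and their ranges overlapped although Grin2d was the higher in 4 of 4 libraries. Grin2c (1.13 ± 0.743) and Grin3a (0.952 ± 0.213) followed with overlapping ranges. Grin2a was lowest, at 0.395 ± 0.0988 RPKM, below Grin3a in 4 of 4 libraries. The place of Grin2b depends on the length used. Per kilobase of the longest coding sequence alone, Grin2b moved above Grin2d (16.2 against 5.24) and Grin2a above Grin2c, and only Grin1 kept the place it had per merged exon. By that length Grin2b was above Grin2d in every group. Susceptible libraries then had the same order of means as non-defeated ones, and input and resilient libraries did not.

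In input the same scale gave 8.32 ± 0.191 RPKM for Grin1 (n = 3), 2.95 ± 0.0920 for Grin2d, 2.88 ± 0.288 for Grin2b and 2.42 ± 0.276 for Grin2c. The range of Grin2b overlapped those of both Grin2d and Grin2c, while Grin2d lay above Grin2c in 3 of 3 libraries with no overlap. Grin3a (1.38 ± 0.0961) and Grin2a (1.20 ± 0.174) came last, also with overlapping ranges. In susceptible mice Grin2b (4.03 ± 0.346 RPKM, n = 3) lay above Grin2d (2.85 ± 0.457) in 3 of 3 libraries with no overlap of ranges, and Grin3a (0.908 ± 0.255) and Grin2c (0.639 ± 0.0684) overlapped. In resilient mice the order was that of non-defeated mice, with overlap between Grin2d and Grin2b, between Grin2b and Grin2c and between Grin2c and Grin3a.

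**Figure D1:**
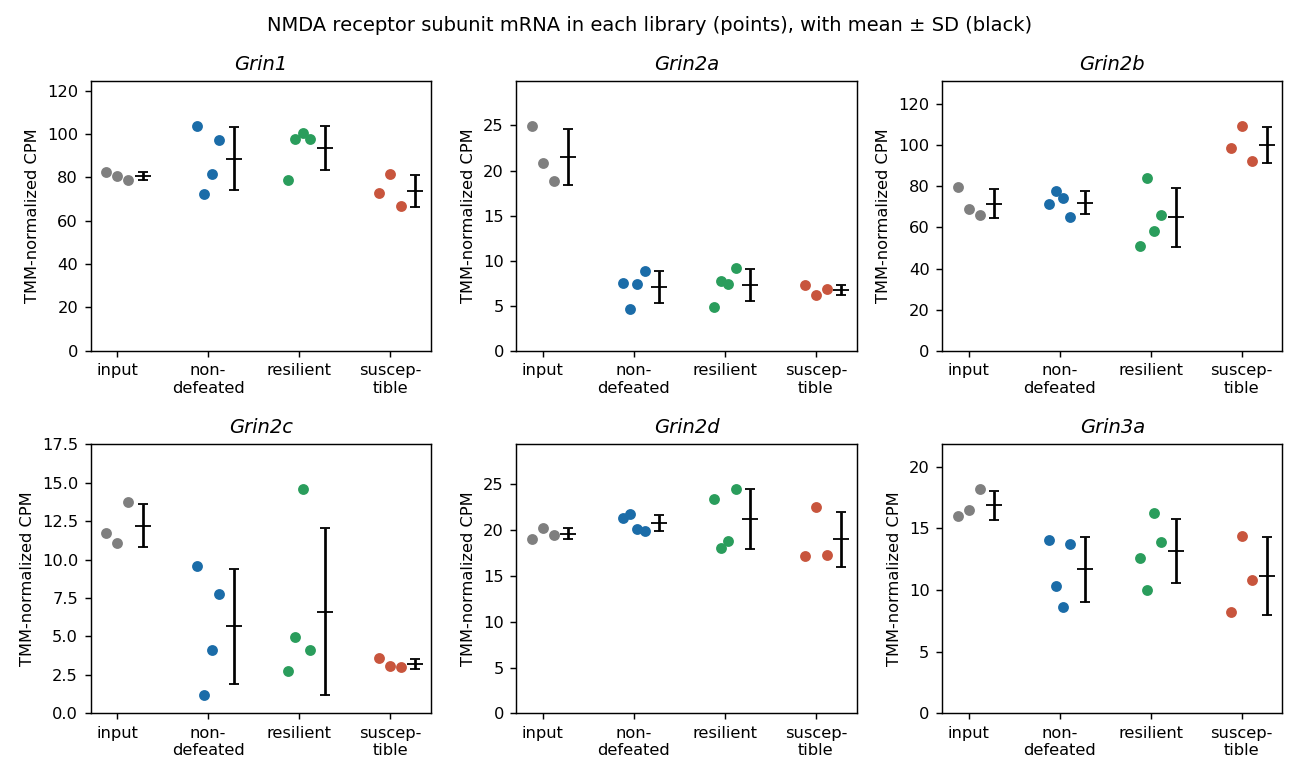
TMM-normalized CPM of the 6 NMDA receptor subunit genes in each of the 14 libraries (points), by group, with the group mean and SD (black, n = 3 or 4), on linear axes that start at 0. Grin2a sits between 18.8 and 24.9 CPM in input and at 9.22 or less in every TRAP library, Grin2b is above 92 CPM only in the 3 susceptible libraries, and Grin2c is widely spread among the non-defeated and resilient libraries.

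TRAP of non-defeated mice was compared with input to ask which subunit mRNAs were more or less abundant on ribosomes of PV neurons than in the whole hippocampus. Grin2a and Grin3a were lower, no member was higher, and Grin1, Grin2b and Grin2d stayed near their input levels. This count of 2 of 6 called (edgeR quasi-likelihood test, adjusted p under 0.05) stands against 55% of all tested genes called in either direction, with 27.6% lower and 27.4% higher. The median log2 fold change over the 6 members was -0.26, and over all tested genes -0.04. In such a comparison of purified with whole-tissue RNA, fewer cells of a type and less RNA per cell cannot be told apart.

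Grin2a, the GluN2 gene of mature principal cells, stood at 24.9, 20.8 and 18.8 CPM in input 12, 13 and 14. In TRAP of non-defeated mice it stood at 4.62, 7.37, 8.84 and 7.48 CPM in libraries 1, 6, 9 and 11. Every input library lay above every TRAP library. TRAP against input gave a log2 fold change of -1.60 (SE 0.21, adjusted p = 2.16e-05), and the call held in every alternative tried, from -1.94 to -1.45. The 8 excitatory markers were lower in the same contrast, with a median log2 fold change of -1.73, and what part excitatory RNA left in the TRAP libraries has in the Grin2a counts was not tested.

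Grin3a encodes GluN3A, a glycine-binding subunit that lowers the calcium permeability of the channel. It had 15.98, 16.5 and 18.2 CPM in the 3 input libraries. In non-defeated libraries 1, 6, 9 and 11 it had 10.4, 8.65, 13.7 and 14.05 CPM. The ranges did not overlap, as for 32.5% of all tested genes in the lower direction. Grin3a thus had a log2 fold change of -0.53 (SE 0.21, adjusted p = 0.0423). This call was lost when any 1 of inputs 12, 13 and 14 or non-defeated 1 or 6 was left out (adjusted p from 0.0674 to 0.124) and with an offset for gene length and GC content (-0.41, adjusted p = 0.115). Without the 4 libraries high in thalamic markers it was -0.78 (adjusted p = 0.0244). That fit compared non-defeated 1 and 6 with input 12 and 13. The libraries left out were those with the highest Grin3a levels within their groups.

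Grin1 stood at 82.7, 80.6 and 79.0 CPM in input 12, 13 and 14 and at 72.2, 81.6, 97.2 and 104 CPM in non-defeated libraries 1, 6, 9 and 11. The input values lay inside the TRAP range. The log2 fold change was 0.14 (95% interval -0.13 to 0.40, adjusted p = 0.371). With the offset for gene length and GC content it was 0.24 and passed the threshold (adjusted p = 0.0373), and without the 4 libraries high in thalamic markers it was -0.10. Grin1 also overlaps an antisense gene, Grin1os, over 1307 bases of exon on the opposite strand, whose counts were 0.447 to 0.534 times those of Grin1. The library kit does not keep strand, so reads in the shared bases cannot be told apart.

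Grin2b, whose subunit GluN2B anchors the kinase CaMKII at the synapse, had 79.7, 68.9 and 66.2 CPM in input 12, 13 and 14. It had 77.6, 74.5, 65.0 and 71.5 CPM in non-defeated libraries 1, 6, 9 and 11, over much the same range. The log2 fold change was 0.01 (95% interval -0.29 to 0.31, adjusted p = 0.956). Grin2d, whose subunit gives slowly closing channels, varied little between these libraries, from 19.0 to 20.3 CPM in input and from 19.9 to 21.7 in TRAP. Its log2 fold change was 0.08 (95% interval -0.18 to 0.35, adjusted p = 0.592). For these 2 genes a difference beyond those intervals was not seen, and a smaller one could not have been told from the spread.

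Grin2c had 11.7, 11.1 and 13.8 CPM in input 12, 13 and 14. In TRAP of non-defeated mice it had 1.21, 4.13, 7.73 and 9.61 CPM in libraries 1, 6, 9 and 11, all below input but spread widely. A log2 fold change of -1.11 did not pass the threshold (SE 0.56, adjusted p = 0.110). Non-defeated 9 and 11 are also the pair with summed thalamic markers of 406 and 302 CPM, against 57.2 and 53.0 in libraries 1 and 6. Without the 4 libraries high in those markers, an alternative chosen after the data were seen, the log2 fold change was -2.09 (adjusted p = 0.00351). That fit compared non-defeated 1 and 6 with input 12 and 13. The libraries left out were those with the highest Grin2c levels within their groups.

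Among TRAP samples, the libraries high in thalamic markers also had the highest Grin2c levels. Resilient 7, with the highest thalamic sum of 720 CPM, also had the highest Grin2c level, 14.6 CPM, which was above every input library. Non-defeated 11 and 9 followed in Grin2c level, the reverse of their order in thalamic sum. The other 8 TRAP libraries, with thalamic sums from 50.01 to 159, had Grin2c levels from 1.21 to 4.97 CPM. In input the thalamic sums of 97.7, 71.8 and 361 went with 11.7, 11.1 and 13.8 CPM of Grin2c. All 8 thalamic markers were detected in every group, and whether dissection carried thalamic tissue into those libraries was not tested. Summed astrocyte markers were 1851 to 1989 CPM in input. Among TRAP libraries they were lowest in non-defeated 1 (985 CPM), which had 1.21 CPM of Grin2c. They were highest in susceptible 10 (1756 CPM), which had 3.62 CPM. The part of astrocyte RNA in the Grin2c levels was not tested.

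**Figure D2:**
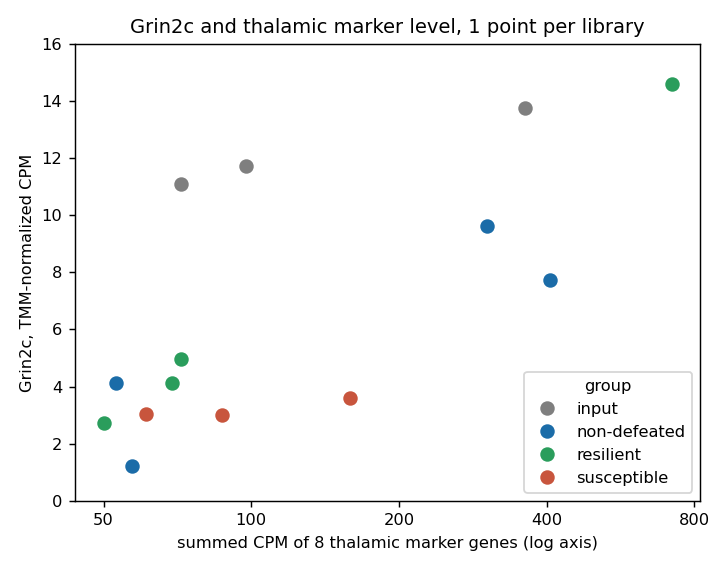
Grin2c level (TMM-normalized CPM, vertical axis) against the summed CPM of 8 thalamic marker genes (horizontal log axis), 1 point per library, coloured by group. The 3 TRAP libraries with sums above 300 carry 7.73 to 14.6 CPM of Grin2c and the other 8 TRAP libraries 1.21 to 4.97, while the input libraries lie between 11.1 and 13.8 at every sum.

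Ratios between subunits within a library do not depend on how libraries are scaled. They were computed as log2 of RPKM ratios, and groups were compared with exact permutation tests, which with 4 against 3 libraries cannot give a two-sided p below 0.0571. Grin2b to Grin2a was 1.21, 1.26 and 1.34 in input and ran from 2.41 to 3.60 in TRAP of non-defeated mice, a mean difference of 1.65 with no overlap. Grin2d to Grin2a differed by 1.72 in the same direction, from 1.30 ± 0.233 in input to 3.02 ± 0.453 (SD). Grin1 to the sum of the 4 Grin2 genes was lower in input (-0.18 ± 0.0335) than in TRAP (0.27 ± 0.128), with no overlap. The sign of this ratio depends on the gene lengths used, so only the difference between groups is read. Grin3a to Grin1 was lower in TRAP by 0.68 (-3.28 ± 0.203 against -2.60 ± 0.131). Each of these 4 differences reached the smallest p possible (two-sided exact permutation test, p = 0.0571, adjusted p = 0.127 over 20 tests), and none passed the threshold. The ratio of Grin2c and Grin2d together to Grin2a and Grin2b together overlapped between input (0.40 ± 0.218) and TRAP (0.35 ± 0.282).

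As shares of the summed RPKM of the 4 Grin2 genes, Grin2a took 12.7% ± 1.51 of input and 5.21% ± 1.15 of TRAP in non-defeated mice. Grin2d took 31.2% ± 1.97 and 41.6% ± 4.14, and Grin2b 30.5% ± 2.20 and 38.8% ± 5.52. The share of Grin2c ran from 3.50% to 22.7% within the non-defeated group alone. In susceptible mice Grin2b took 51.1% ± 0.693 in 3 libraries that differed by little (50.4% to 51.8%), above the 34.9% ± 7.41 of resilient mice (27.6% to 45.1%). The size of all these shares depends on the gene length used. Per kilobase of the longest coding sequence, Grin2b stood above Grin2a, Grin2c and Grin2d in every group. Against Grin2d it was 16.1 to 4.94 in input and 16.2 to 5.24 in TRAP of non-defeated mice. Shares by that length were not computed.

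**Figure D3:**
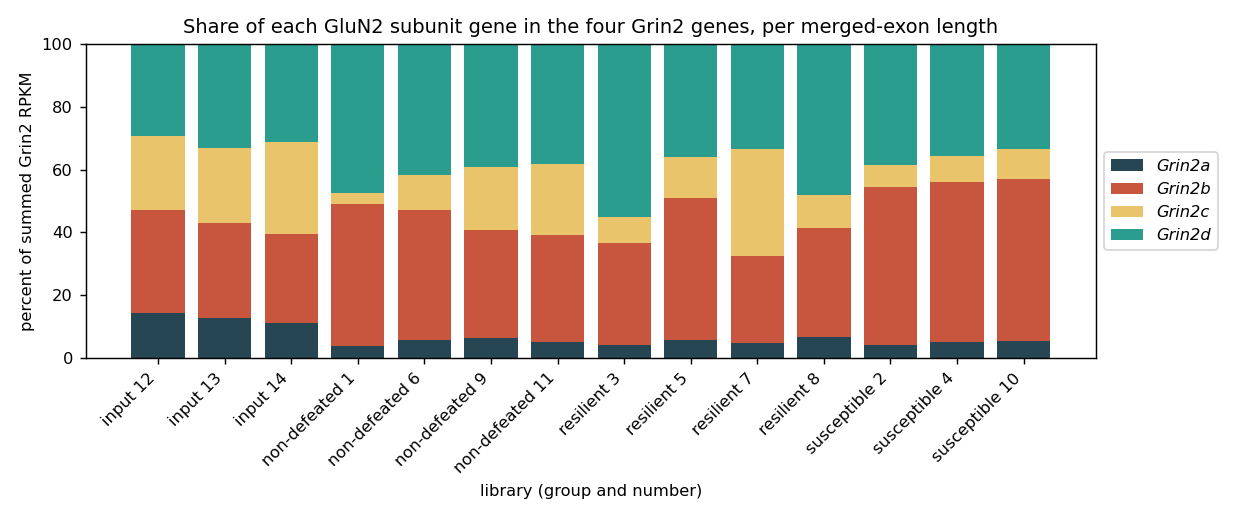
Percent of the summed RPKM of Grin2a, Grin2b, Grin2c and Grin2d taken by each gene, as 1 stacked bar per library ordered by group, on an axis from 0 to 100. The Grin2a share is largest in the 3 input libraries (11.2% to 14.2%), the Grin2b share is above 50% in the 3 susceptible libraries, and the Grin2c share is largest among TRAP libraries in resilient 7 (34.2%). Shares are per kilobase of merged exons, and their size depends on the gene length used.

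The stress groups were compared with each other to ask whether subunit mRNA on PV neuron ribosomes differed with defeat or with its outcome. Grin2b was higher in susceptible than in resilient mice and was the only member called in any comparison of stress groups. The resilient and the susceptible comparison with non-defeated mice share the same 4 control libraries.

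Grin2b had 92.4, 98.7 and 109 CPM in susceptible libraries 4, 10 and 2. In resilient libraries 3, 7, 8 and 5 it had 51.2, 58.1, 66.2 and 84.2 CPM. All susceptible values lay above all resilient and non-defeated values, and resilient 5 came closest. Against resilient mice the log2 fold change was 0.63 (SE 0.14, 95% interval 0.33 to 0.92, adjusted p = 0.0416), the 1 call among 6 members where 1.89% of all tested genes were called in either direction and 1.02% as higher. Groups did not overlap in the higher direction for 7.71% of all tested genes. The log2 fold change against the non-defeated group was 0.47 (SE 0.14, unadjusted p = 0.00397, adjusted p = 0.192). It did not pass, in a comparison with 0.0376% of tested genes called and 4.21% not overlapping in the higher direction. DESeq2 on those 2 groups called Grin2b (0.47, adjusted p = 0.0168) among 0.534% of the genes it tested.

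The call against resilient mice lies close to the threshold. It was lost when any 1 of resilient 3, 7 and 8 or susceptible 2 and 4 was left out (adjusted p from 0.0578 to 0.162) and in 5 of 10 other alternatives, among them a fit of the 11 TRAP libraries only (0.63, adjusted p = 0.103) and the fit without the 4 libraries high in thalamic markers (0.57, adjusted p = 0.140). Over the alternatives the log2 fold change ran from 0.49 to 0.78. Since all susceptible values lay above all resilient values, leaving out or splitting libraries could not reverse the direction, which is no separate evidence. The difference of mean log2 CPM, with its sign fixed in this way, was 0.61 among libraries numbered 1 to 6. It was 0.67 among those numbered 7 to 11, where there was 1 susceptible library. What the numbers mean is not stated.

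Markers of red blood cells, like Grin2b, were higher in susceptible than in resilient mice. All 4 of these hemoglobin genes were called higher in susceptible than in resilient mice, and their sum was 885 to 1218 CPM in susceptible, 127 to 588 in resilient, 114 to 240 in non-defeated and 774 to 981 in input libraries. Within the resilient group, library 5 was highest in both the hemoglobin sum and Grin2b. Resilient 3 had the next highest hemoglobin sum (238 CPM) and the lowest Grin2b level (51.2 CPM). Among susceptible libraries, library 2 had the lowest hemoglobin sum (885 CPM) and the highest Grin2b level (109 CPM). Input libraries had hemoglobin sums that overlapped those of susceptible libraries and Grin2b levels of 66.2 to 79.7 CPM, below the 3 susceptible libraries. The part of blood RNA in the Grin2b difference was not tested. The PV marker sums overlapped between susceptible (3472 to 4869 CPM) and resilient libraries (4000 to 4827).

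The other 5 members were not called in either comparison of susceptible mice. Grin1 and Grin2b were the 2 of 6 members with an unadjusted p under 0.05 in both, as were 20.9% of all tested genes against resilient and 13.3% against non-defeated mice. Grin1 had 66.7, 72.7 and 81.6 CPM in susceptible libraries 4, 10 and 2. It had 78.7 CPM in resilient 3 and 97.8 to 100.4 CPM in resilient 5, 7 and 8. The lowest resilient library thus lay inside the susceptible range. The log2 fold change was -0.35 against resilient mice (SE 0.12, unadjusted p = 0.0139, adjusted p = 0.135) and -0.27 against non-defeated mice (unadjusted p = 0.0483, adjusted p = 0.372).

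Grin2a had 6.23, 6.81 and 7.33 CPM in susceptible libraries, inside the 4.89 to 9.22 of resilient and the 4.62 to 8.84 of non-defeated libraries. Its log2 fold change was -0.11 against resilient mice (95% interval -0.57 to 0.36, adjusted p = 0.826). Grin2d ranged from 17.1 to 22.5 CPM in susceptible and from 18.0 to 24.5 in resilient libraries (-0.16, 95% interval -0.43 to 0.11, adjusted p = 0.506). Grin3a ranged from 8.19 to 14.4 CPM in susceptible and from 9.99 to 16.2 in resilient libraries (-0.24, 95% interval -0.69 to 0.21, adjusted p = 0.556). The ranges of all 3 genes overlapped between the groups.

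Grin2c had 2.99, 3.05 and 3.62 CPM in susceptible libraries, a narrow range within that of resilient mice, where libraries 3, 8, 5 and 7 had 2.74, 4.13, 4.97 and 14.6. The log2 fold change of -1.04 had an interval from -2.30 to 0.22 (adjusted p = 0.334). Against non-defeated mice it was -0.82 (adjusted p = 0.557), and it turned to 0.27 (adjusted p = 0.973) without the libraries high in thalamic markers.

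No member was called between resilient and non-defeated mice, where 0% of all tested genes were called by the quasi-likelihood test, 4.38% had an unadjusted p under 0.05 and DESeq2 called 0 genes too. The likelihood ratio test of edgeR called 4 genes, none of them a member. Member log2 fold changes ran from -0.15 for Grin2b (95% interval -0.43 to 0.12) to 0.22 for Grin2c (95% interval -0.90 to 1.35), each with adjusted p = 1. No member had an unadjusted p under 0.05, and the ranges of every member overlapped, as for all but 2.35% of tested genes.

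**Figure D4:**
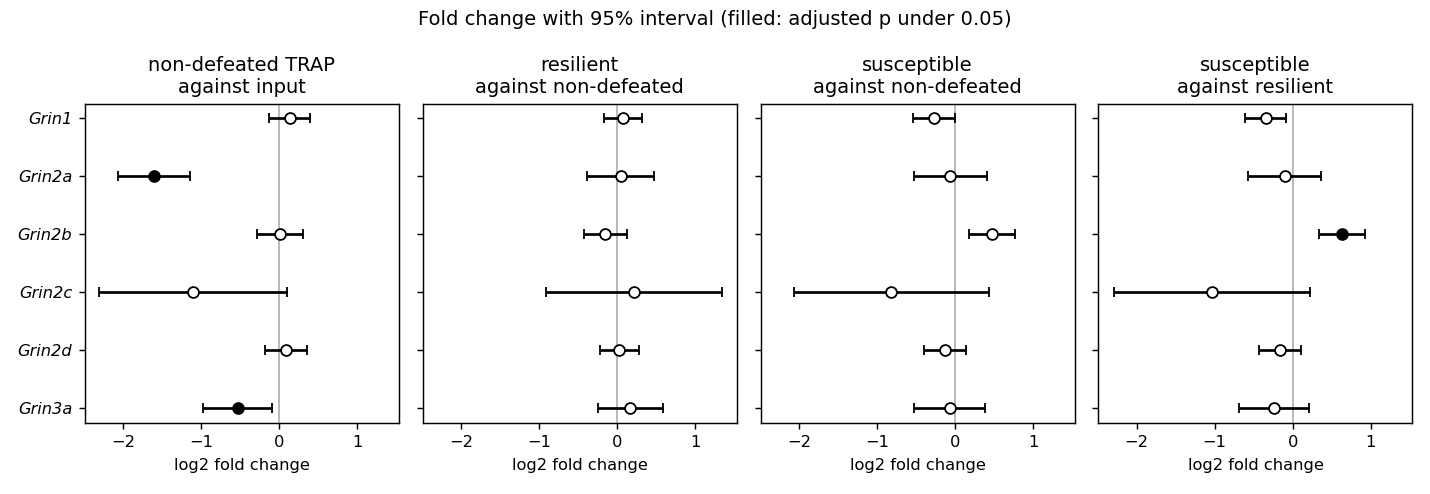
Log2 fold change of the 6 members in each of the 4 comparisons, with 95% intervals from the edgeR quasi-likelihood fit of all 14 libraries, filled where the adjusted p is under 0.05. Filled points are Grin2a (-1.60) and Grin3a (-0.53) in TRAP against input and Grin2b (0.63) in susceptible against resilient mice, and Grin2c has the widest intervals.

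The same ratios were compared between the stress groups. Grin2b to Grin2a was higher in susceptible (3.28 to 3.67) than in resilient libraries (2.38 to 2.98), a difference of 0.72. It overlapped with non-defeated libraries (2.41 to 3.60), where the difference was 0.50. Grin2c and Grin2d together relative to Grin2a and Grin2b together ran from -0.41 to -0.25 in susceptible libraries, below every resilient library (-0.05 to 1.06) and every non-defeated library (0.05 to 0.63). Grin1 to the sum of the Grin2 genes ran from -0.09 to -0.03 in susceptible libraries, below resilient (0.29 to 0.42) and non-defeated libraries (0.11 to 0.39). Each of the 5 differences without overlap had the smallest p the design allows (two-sided exact permutation test, p = 0.0571, adjusted p = 0.127), so none passed. All of them contain Grin2b, and the other 2 ratios, without it, overlapped between susceptible and resilient mice. These were Grin2d to Grin2a (2.91 ± 0.333 against 2.99 ± 0.472) and Grin3a to Grin1 (-3.10 ± 0.346 against -3.19 ± 0.309).

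Grin3b encodes the other glycine-binding subunit and is the remaining subunit gene (ENSMUSG00000035745, chr10:79970715-79977190, plus strand). It had 66 to 74 counts per input library and 157 to 357 per TRAP library. Its level was 0.868, 0.934 and 0.781 CPM in input and 2.29 to 2.75 in TRAP of non-defeated mice, with no overlap. Its log2 fold change was 1.53 (SE 0.23, adjusted p = 5.92e-05). Grin3b shares 1059 bases of exon with Tmem259 on the opposite strand, which had 4.21 to 9.33 times its counts and differed in the same contrast by 0.95 (adjusted p = 0.000409), so the source of reads in the shared bases cannot be told apart. Susceptible libraries 10, 4 and 2 had 2.56, 4.25 and 4.91 CPM and resilient libraries 2.01 to 2.97, a log2 fold change of 0.76 that did not pass (adjusted p = 0.0735).

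Genes that act with the receptor were grouped by function. Their counts against input stand beside 55% of all tested genes called in that contrast, 27.4% as higher and 27.6% as lower. Of 18 tested genes for postsynaptic scaffolds and anchors, 2 were higher, 9 lower and 7 not called in TRAP of non-defeated mice against input, with a median log2 fold change of -0.21. Shank1, a master scaffold of the postsynaptic density, was higher by 1.31 (adjusted p = 1.05e-05; 228 ± 31.6 CPM against 92.2 ± 8.18), and Dlgap3 by 0.30 (adjusted p = 0.0177). The Dlgap3 call was lost without input 14 (adjusted p = 0.0587) and without the 4 libraries high in thalamic markers (adjusted p = 0.116). Dlg1, which encodes the membrane-associated guanylate kinase SAP97, was lower by 1.43 (adjusted p = 6.89e-05; 22.0 ± 5.05 CPM against 59.2 ± 6.17), and Homer3 by 1.38 (adjusted p = 7.45e-07).

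Of 20 kinase and phosphatase genes, 4 were higher, 11 lower and 5 not called (median -0.51). Camk2g, a CaMKII isoform that shuttles calmodulin to the nucleus, was higher by 1.11 (adjusted p = 1.36e-06; 52.0 ± 7.42 CPM against 24.1 ± 2.03), and Csnk2a1, the catalytic subunit of casein kinase II, by 0.79 (adjusted p = 0.000149). Camk2b, a major CaMKII isoform of forebrain synapses, was lower by 1.16 (adjusted p = 0.000181; 729 ± 144 CPM against 1630 ± 111), and Dapk1 by 1.26 (adjusted p = 0.00029). These isoforms of CaMKII thus differed in opposite directions.

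Of 7 genes of dendritic transport and recycling, 0 were higher and 2 lower. Kif17, the kinesin that carries GluN2B vesicles into dendrites, was at 9.62 ± 1.66 CPM against 21.7 ± 0.108 in input (-1.17, adjusted p = 2.04e-06), and Lin7c at 43.5 ± 7.40 against 172 ± 13.8 (-1.99, adjusted p = 9.55e-09). Of 9 tested genes of co-agonist synthesis and transport, 0 were higher and 5 lower (median -0.70), among them Srr, which makes D-serine (-1.24, adjusted p = 2.85e-07), and Gldc of the glycine cleavage system (-1.04, adjusted p = 0.0139). The remaining gene of that list, Dao, had too few counts to be tested. Astrocyte markers were lower in the same contrast in 6 of 8, from a summed 1851 to 1989 CPM in input to 985 to 1480 in TRAP of non-defeated mice, and their part in the co-agonist genes was not tested.

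Of 11 calcium-dependent effectors, 2 were higher and 4 lower. Kalrn, a regulator of dendritic spines, was higher by 0.41 (adjusted p = 0.0137) and the calmodulin gene Calm3 by 0.37 (adjusted p = 0.0136). The Kalrn call was lost without the 4 libraries high in thalamic markers (0.32, adjusted p = 0.147). That of Calm3 was lost without input 13 (adjusted p = 0.0816) and with the offset for length and GC content (0.21, adjusted p = 0.104). Creb1, the transcription factor activated by calcium entry, was lower by 1.01 (adjusted p = 2.26e-05), and its coactivator Crtc1 by 0.98 (adjusted p = 0.000197). Of the other genes of the ionotropic family, Grin3b and Grina (1.05, adjusted p = 4.96e-06) were higher.

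Between susceptible and resilient mice 3 of the 69 tested partner genes were called, all higher. Of all tested genes, 1.89% were called in either direction and 1.02% as higher. Ppp3cb, a catalytic subunit of the calcium-dependent phosphatase calcineurin, was at 176 ± 7.03 CPM in susceptible and 134 ± 7.03 in resilient mice (0.39, SE 0.06, adjusted p = 0.0227). Camk2g was at 66.2 ± 5.79 against 46.5 ± 1.81 CPM (0.51, SE 0.11, adjusted p = 0.0389). Grid1, which encodes the delta glutamate receptor GluD1, was at 3.87 ± 0.752 against 2.18 ± 0.504 CPM (0.83, SE 0.19, adjusted p = 0.0443). Like the Grin2b call, each was lost when single libraries were left out (4 of 7 libraries for Ppp3cb, 6 for Camk2g and 6 for Grid1). Each was also lost in the 11 TRAP libraries alone (adjusted p = 0.0834, 0.102 and 0.103), in the 2 groups alone (0.141, 0.136 and 0.161) and without the 4 libraries high in thalamic markers (0.109, 0.109 and 0.165), and those of Camk2g and Grid1 with no filter on low counts (0.0524 and 0.0639). None of the partner genes passed against non-defeated mice, where Dlg2 (-0.49, adjusted p = 0.180), Ppp3cb (0.23, adjusted p = 0.191) and Camk2g (0.35, adjusted p = 0.217) had the smallest unadjusted p in susceptible mice. In resilient mice these were Ppp3cb (-0.16), Grid1 (-0.45) and Dlg4 (-0.35), each with adjusted p = 1.

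The genes with the profile most like each member over the 14 libraries were found by the root mean square (RMS) difference of log2 CPM, centred on each gene's mean. For Grin2b these were Ksr1 (0.12) and 1700113A16Rik (0.13), where the RMS of Grin2b around its own mean was 0.29, and Ksr1 differed between susceptible and resilient mice by 0.68 (adjusted p = 0.0429). For Grin1 they were Rpn1 (0.05) and the overlapping Grin1os (0.06), with 0.19 for Grin1 itself. Rabgap1l (0.17) and Camkv (0.18) lay nearest to Grin2a, whose own value was 0.72, and they differed from input by -1.46 and -1.60. Grin2d lay near Slc22a17 (0.09) and Lnpk (0.10), against 0.15 of its own, and Grin3a near Zc3hav1l (0.16) and Spg11 (0.16), against 0.35. For Grin2c the closest were Gm25837 (0.36), a short RNA gene that overlaps its exons, and Pdgfrb (0.37), against 1.02 of its own.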

How the data were processed

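Ribosome-bound mRNA (11 TRAP libraries) and input RNA (3 libraries) were sequenced as full-length, non-stranded cDNA. The authors deposited raw counts per gene, not normalized. Their processing notes name STAR 2.5.3a, HTSeq and mm10, and the methods add read trimming with fastp and name another version of STAR. The counting settings and annotation are not given in the sources used here. Of 39017 identifiers, 37693 were named from GENCODE M21, and the others held 0.824% of counts.

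Differential abundance was tested with edgeR 4.0.16 (R 4.3.3) on the counts, with all 14 libraries in 1 model, the default filter on low counts (21298 genes), TMM and two-sided quasi-likelihood tests with Benjamini-Hochberg adjustment over all tested genes. SE was approximated as the absolute log2 fold change over the square root of F. Log2 CPM for RMS differences used a prior count of 2. RPKM used merged exons. Ratios were compared with exact permutation tests, adjusted over 20 tests. DESeq2 1.42.0 was an alternative, among others given in the closing section. Code was tested on simulated data. Library totals were 64110214 to 94726962, but the part of counting error in the replicate spread depends on the counts of each gene. Grin3b, for example, had 66 to 74 counts per input library. Every test includes the replicate spread. Taken over all genes, libraries within a group differed by more than counting error.

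Groups were taken from the labels, and no column was left out. All members were named. Partner genes were named by rule, as the 2 largest called changes per direction and list against input, and the 3 smallest p-values in each stress comparison. The 2 nearest genes were named for each member. The members and lists were chosen with earlier results of these data known. Of the partner genes, 1 is not reported here.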

Additional observations from a re-analysis of the deposited data

Results flagged for a closer look

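Grin1 in resilient library 3 stood apart from its group. At 78.7 CPM it lay below the other 3 libraries (97.8 to 100.4), and its gap to the nearest of them was 0.880 of the range of the group, above Dixon's critical value of 0.829 for 4 samples. Of 24 groups of 4 examined (each subunit gene and ratio in the non-defeated and resilient groups), this was the 1 that passed, and chance passes about 1 in 20.

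For 4 genes the effect of defeat against the non-defeated libraries differed between susceptible and resilient mice. Since the shared non-defeated group cancels, this is the comparison of susceptible with resilient mice described above and no separate test. By edgeR's quasi-likelihood test the difference was 0.63 on the log2 scale for Grin2b (adjusted p = 0.0416), 0.83 for Grid1 (adjusted p = 0.0443), 0.51 for Camk2g (adjusted p = 0.0389) and 0.39 for Ppp3cb (adjusted p = 0.0227), and each call was lost in some of the alternatives tried. For Grin2b, both effects against the non-defeated group had adjusted p-values over the threshold (-0.15 in resilient and 0.47 in susceptible mice).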

How the results depend on the processing

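Which members were called depended on settings in 3 of 4 comparisons. Against input, 2 members were called, and leaving out 1 library gave 1 to 2 because Grin3a lost its call. With the offset for length and GC content the count stayed at 2, but Grin1 was called in place of Grin3a. Without the 4 libraries high in thalamic markers it was 3, as Grin2c was called too. Between susceptible and resilient mice 1 member was called, and leaving out 1 library gave 0 to 1. The count there was 0 with no filter on low counts, with an offset for length and GC content, with the 11 TRAP libraries only, with the 2 groups only and without the 4 libraries high in thalamic markers, an alternative added after the data were seen (Grin2b adjusted p from 0.0510 to 0.147). Between susceptible and non-defeated mice DESeq2 called 1 member where the main test called 0. No member was called between resilient and non-defeated mice under any alternative. Over all genes, calls between susceptible and resilient mice numbered 403, against 1030 by DESeq2, 1099 by the likelihood ratio test, 1109 with the sample number as a covariate, 126 with no filter, 1 in the TRAP libraries only, 0 in the 2 groups only and 0 without the 4 libraries. Leaving out 1 library gave 6 to 1058. Between susceptible and non-defeated mice they numbered 8, against 108 by DESeq2, 189 by the likelihood ratio test, 16 with at least 10 counts in every library, 13 with RLE size factors, 3 with the offset, 0 in the TRAP libraries only, 0 with the covariate, 5 in the 2 groups only and 0 without the 4 libraries, and 0 to 6 without 1 library.

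Members that were not called changed sign as follows, and the cause was not tested. Grin2b against input was -0.015 with at least 10 counts in every library and ranged from -0.043 to 0.094 without 1 library. Grin1 against input was -0.10 without the 4 libraries. In susceptible against non-defeated mice, Grin2a was 0.072 with the covariate and 0.19 without the 4 libraries (-0.22 to 0.064 without 1 library), Grin2c 0.27 without the 4 libraries, and Grin3a 0.24 without them (-0.30 to 0.11 without 1 library). In resilient against non-defeated mice, leaving out 1 library gave -0.0067 to 0.16 for Grin1, -0.11 to 0.20 for Grin2a, -0.52 to 0.60 for Grin2c and -0.048 to 0.10 for Grin2d. In susceptible against resilient mice it gave -0.26 to 0.025 for Grin2a.

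Among the log2 ratios, which never passed, Grin2c and Grin2d to Grin2a and Grin2b against input was 0.046 per kilobase of the longest coding transcript and -0.16 to 0.056 without 1 library. Leaving out 1 library gave, in resilient against non-defeated mice, -0.39 to 0.0072 for Grin2b to Grin2a, -0.26 to 0.18 for Grin2d to Grin2a and -0.0092 to 0.24 for Grin3a to Grin1. It gave -0.31 to 0.10 for Grin2d to Grin2a in susceptible against non-defeated mice, and against resilient mice -0.28 to 0.15 for Grin2d to Grin2a and -0.060 to 0.28 for Grin3a to Grin1. By coding sequence length, 1 of 6 members kept its place in the order of levels in TRAP of non-defeated mice.

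No paired analysis was done. The groups share no sample numbers, but the meaning of these numbers is not stated. Whether input and TRAP libraries came from the same mice is thus not known. With 3 or 4 libraries a group, changes within the intervals given could not be detected, and the exact tests of ratios could not pass.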
